A study of Mus musculus with 4 samples.

Results

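Atf3-positive spots were 101 of the 12994 tissue spots on 4 mouse brain sections. Atf3 encodes a transcription factor that neurons switch on when their axon is cut or the cell is under stress. The spots came from the 2 rNLS8 sections and met 5 conditions: they lay under tissue, held at least 2000 unique molecular identifiers (UMI, each standing for 1 captured molecule), had a share of Slc17a7 UMI above their section's median, held no Cst7 UMI and held at least 1 Atf3 UMI. Slc17a7 encodes the vesicular glutamate transporter of cortical excitatory neurons, and Cst7 is a gene of microglia activated by disease. The same conditions with 0 Atf3 UMI gave 2259 spots for comparison. Replicate 1 of rNLS8 held 52 Atf3-positive and 1264 Atf3-negative spots, and replicate 2 held 49 and 995. The members were chosen by their Atf3, Slc17a7 and Cst7 UMI, so the values of these genes are described without a test.

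The sections were 5 µm thick, cut from formalin-fixed, paraffin-embedded brain, and came from mice of 11 weeks, 3 weeks after doxycycline was withdrawn. All 4 samples, control and rNLS8, carry the label Dox withdrawal, and the labels do not say which transgene the control animals have. In rNLS8 mice a neurofilament heavy chain promoter drives the doxycycline-controlled activator, so that a human TDP-43 without a working nuclear localisation signal is made mainly in neurons once doxycycline is gone. Replicate 1 of each group is labelled female and replicate 2 male, but Y-linked genes stood at 137 and 139 CPM (UMI of a gene scaled to 1000000 UMI in all) in the rNLS8 sections and at 0 and 107 CPM in control. It is thus not established that the 2 rNLS8 sections came from separate animals, and the p-values cannot cover a spread between animals. They are from a fit that takes out differences in level between the 2 sections and estimates the remaining spread partly across all genes. The sections held 17627577 to 28056089 UMI. A spot covers several cells or parts of them, so an Atf3 UMI cannot be placed in one cell.

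ATF3 belongs to the ATF/CREB family and binds DNA as a dimer, often with c-Jun. Its gene is a target of the integrated stress response, in which ATF4 raises the stress factor CHOP (Ddit3), and of the axonal DLK-JNK kinase cascade. In sensory and motor neurons it is a standard mark of nerve injury, beside Jun, Sox11, Gap43 and Sprr1a, and glial and immune cells can also make it.

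Atf3 was sparse even in these spots. Of the 52 and 49 Atf3-positive spots, 50 and 42 held exactly 1 Atf3 UMI, and the highest spot held 2 in replicate 1 and 3 in replicate 2. Over all spots of the rule, Atf3 stood at 4.40 and 7.94 CPM in the rNLS8 sections and at 0.554 and 0.642 CPM in the control sections. The share of such spots with an Atf3 UMI was 3.95% (52 of 1316, 95% exact binomial interval 2.96 to 5.15) in rNLS8 replicate 1 and 4.69% (49 of 1044, 3.49 to 6.16) in replicate 2. In control it was 0.386% (5 of 1296) and 0.434% (6 of 1384). These intervals cover counting error only. The lowest Slc17a7 share among members was 0.188% and 0.315% of UMI, just above the section medians of 0.184% and 0.310%, and the nearest Atf3-positive spots below those medians had 0.172% and 0.305%.

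Atf3-positive spots held more UMI in all than Atf3-negative spots. The median Atf3-positive spot held 10955.5 UMI against 9874 for Atf3-negative spots in replicate 1, and 7865 against 6438 in replicate 2. With the spots of a section ordered by UMI and cut into 4 depth groups, the Atf3-positive share went from 1.22% in the shallowest to 5.17% in the deepest group of replicate 1 and from 2.30% to 5.75% in replicate 2. Atf3 in CPM did not follow that order, at 3.41 and 4.06 CPM in the shallowest and deepest groups of replicate 1 and 7.67 and 6.39 CPM in those of replicate 2. When each spot was thinned to 2000 UMI in 1 random draw, 1.06% and 1.63% of rNLS8 spots (14 and 17 spots) and 0% and 0.0723% of control spots kept an Atf3 UMI. Another draw left 9 and 18 rNLS8 spots, and the number expected over all draws was 11.2 and 16.5 spots, or 0.851% and 1.58%, against 0.0913% and 0.127% of control spots. In the first draw, the control share of 0 of 1296 spots allows up to 0.284% by the same interval. Atf3-negative therefore means that no UMI was captured, not that the gene was off.

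**Figure D1:**
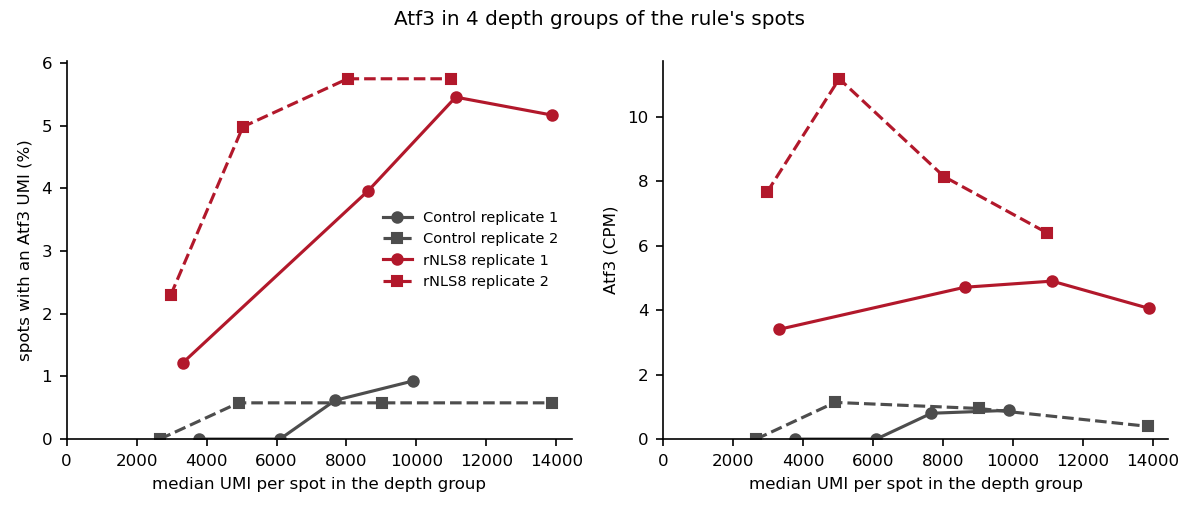
Atf3 in 4 groups of the rule's spots ordered by depth, in the 2 control and 2 rNLS8 sections. The x axis is the median UMI per spot in the group. The left panel gives the percentage of spots with an Atf3 UMI, which runs from 1.22% to 5.17% in rNLS8 replicate 1, and the right panel gives Atf3 in CPM, which does not keep that order.

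Most of these spots were cortical by their markers, though the rule does not ask for it. Cortical marker UMI were more than 4 times those of striatal, hippocampal and thalamic markers in 45 of 52 (86.5%) and 46 of 49 (93.9%) Atf3-positive spots, and in 59.6% and 89.1% of Atf3-negative spots. The remaining 7 and 3 Atf3-positive spots are not cortical by this measure. Within spots with cortical markers the Atf3-positive share was 5.64% and 4.93%, and in the other spots of the rule 1.35% and 2.70%. Those other spots were also shallower, with medians of 5757.5 and 3223 UMI against 11147.5 and 7160. Markers of neurons were present in both sets. Rbfox3, a pan-neuronal RNA-binding protein, stood at 185 and 172 CPM in Atf3-positive and 162 and 142 CPM in Atf3-negative spots (adjusted p = 0.82 in edgeR's quasi-likelihood test).

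Spots with a Cst7 UMI, which the rule leaves out, lay beside many Atf3-positive spots. A Cst7-positive spot touched 31 of 52 (59.6%) and 35 of 49 (71.4%) of them, against 38.9% and 52.1% of Atf3-negative spots. Among Atf3-negative spots matched on total UMI, 2 for each Atf3-positive spot, the shares were 48.1% and 58.2%. With spots of cortical markers alone, they were 62.2% and 73.9% against 53.3% and 59.8% in matched spots. In both sections the Atf3-positive share was above the matched share. The Atf3-positive spots themselves were scattered. Of their neighbours within the rule, 4.94% and 5.71% were also Atf3-positive, against 4.22% and 4.73% for Atf3-negative spots and 3.61% and 3.89% for depth-matched ones. With 2 sections no exact paired test can go below 0.5, so none was run on these shares.

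**Figure D2:**
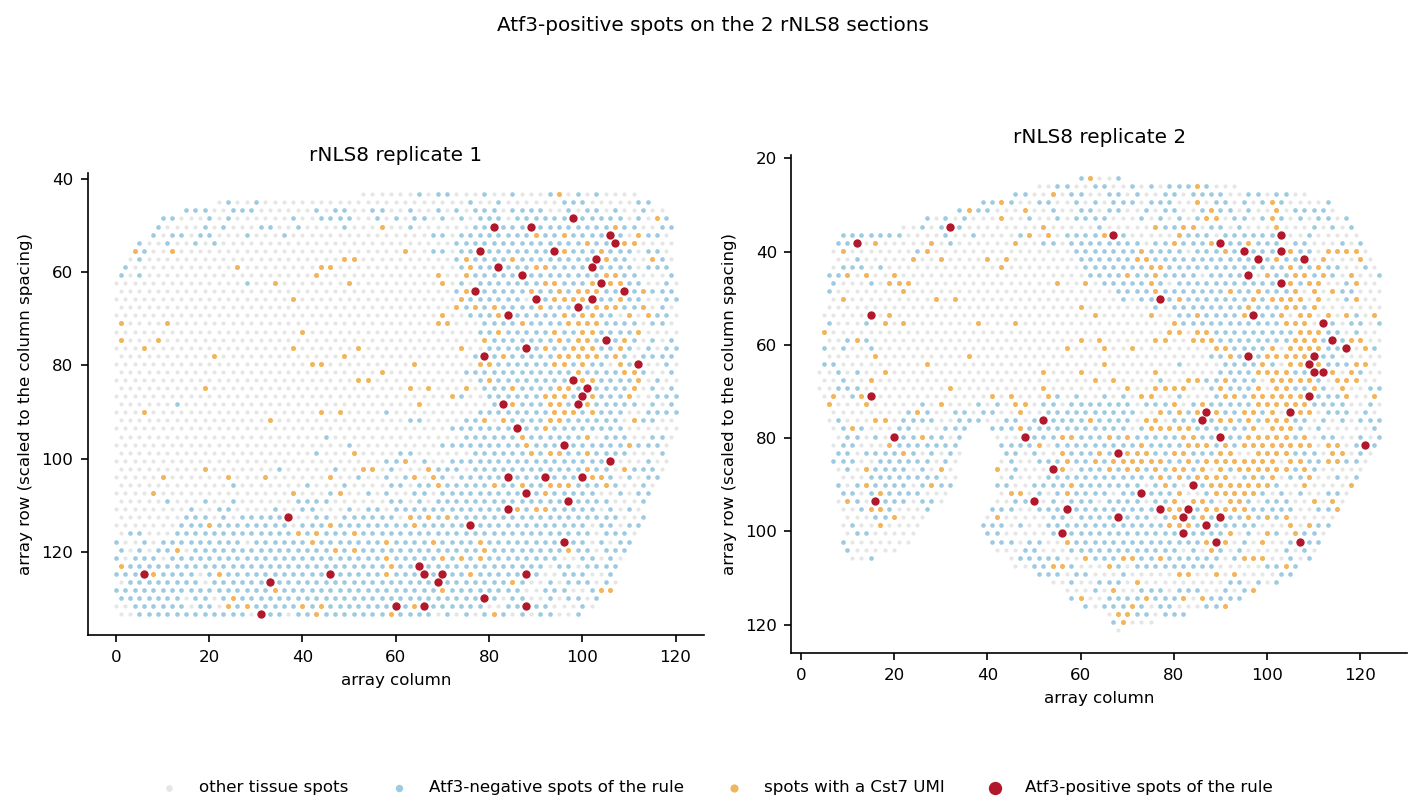
Position of the spots on the array in the 2 rNLS8 sections, with column and row of the array on the axes, scaled alike. Dark red points are the 52 and 49 Atf3-positive spots, blue points the Atf3-negative spots of the rule, orange points spots with a Cst7 UMI and grey points other tissue spots. Red points are spread through the blue area, often beside orange ones.

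UMI were then summed over the Atf3-positive and over the Atf3-negative spots of each section, and the 4 sums were compared gene by gene with the section as a block, leaving Atf3, Slc17a7 and Cst7 untested. Of 11358 genes tested, 9 (0.0792%) were higher and 3 (0.0264%) lower in Atf3-positive spots at a Benjamini-Hochberg adjusted p under 0.05 in edgeR. The 9 were Cxcl10, Adcyap1, Tnfrsf12a, Gadd45b, Ddit3, Bdnf, Cdkn1a, Slc6a8 and Nr4a1, and the 3 were Rab3b, Ppp1r1b and Nnat. All 12 moved the same way in both sections. The fit leaves 1 residual degree of freedom, and the calls depend on the settings: DESeq2 called 0 genes (44 at an unadjusted p under 0.05), as did edgeR without the section block (477) and edgeR with the Cst7 condition dropped (794). The folds below are log2 fold changes of Atf3-positive over Atf3-negative spots with a standard error (SE) derived from the F value, levels are in CPM of the set's total UMI, and adjusted p-values are from edgeR.

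Of genes known from nerve injury and regrowth, 24 of 30 listed could be tested, and Tnfrsf12a, Adcyap1 and Cdkn1a were called higher. Over all genes tested, 9 of 11358 (0.0792%) were called higher. Tnfrsf12a encodes the TWEAK receptor Fn14, which promotes neurite growth after injury. It stood at 61.0 CPM in Atf3-positive and 26.2 CPM in Atf3-negative spots of replicate 1, and at 99.2 and 46.5 CPM in replicate 2 (1.15 ± 0.20 SE, adjusted p = 0.00114). Control spots of the rule held 4.87 and 7.34 CPM, so every rNLS8 sum was above both controls. A Tnfrsf12a UMI was found in 20 of 52 (38.5%) and 19 of 49 (38.8%) Atf3-positive spots, against 20.3% and 24.8% of Atf3-negative ones. Adcyap1 encodes PACAP, a neuropeptide induced in injured neurons. Its levels were 41.3 against 12.3 CPM in replicate 1 and 39.2 against 19.6 CPM in replicate 2 (1.41 ± 0.30 SE, adjusted p = 0.0128), from 23 and 15 UMI in the Atf3-positive spots. The Atf3-negative levels lay around the control values of 18.9 and 15.8 CPM. Cdkn1a, the p53 target that encodes the cell cycle inhibitor p21, stood at 117 against 90.7 CPM and 251 against 128 CPM (0.68 ± 0.14 SE, adjusted p = 0.0085). Its control values of 83.4 and 134 CPM overlap the Atf3-negative range.

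The classical partners of Atf3 in axotomized neurons did not pass the test. Jun had a fold of 0.45 ± 0.15 SE (adjusted p = 0.49), at 113 against 92.1 CPM and 154 against 98.6 CPM. Gap43, a growth cone protein, was at 660 against 739 CPM and 608 against 850 CPM (-0.31 ± 0.08 SE, adjusted p = 0.10). Both sections thus had the lower Gap43 level in Atf3-positive spots. Sox11, a developmental transcription factor of regrowing neurons, had a fold of 0.03 ± 0.17 SE, and Ecel1, a neuronal protease induced by injury, 0.34 ± 0.26 SE (adjusted p = 0.99 and 0.91). Sprr1a had 1 UMI in the Atf3-positive spots of replicate 1 and 0 in those of replicate 2, Gal 1 and 0, and Csf1 0 and 0. These were too few to test. The median over the 24 injury genes was 0.08, beside -0.00 over all genes tested. It was 0.43 against depth-matched spots, where none of 18 injury genes was called, and -0.08 without spots touching Cst7. The -0.00 over all genes belongs to the fit with all spots of the rule. No such value is given beside list medians or counts above 0 from other fits, here or below. Those list values therefore have no background beside them and are not read as a shift of the list.

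Among stress-response genes, 1 row of Ddit3 passed the test. The files hold 2 rows with the symbol Ddit3, and no label or header says how their UMI were divided. The row ENSMUSG00000116429 stood at 144 against 93.4 CPM in replicate 1 and 253 against 146 CPM in replicate 2 (0.71 ± 0.13 SE, adjusted p = 0.00134), with controls at 77.9 and 64.2 CPM. The row ENSMUSG00000025408 stood at 68.2 against 59.5 CPM and 136 against 90.6 CPM (0.40 ± 0.17 SE, adjusted p = 0.74). Atf4, the regulator upstream of Ddit3, had a fold of 0.23 ± 0.19 SE and Atf5 0.44 ± 0.26 SE, neither past the threshold. Chac1, a glutathione-degrading enzyme downstream of ATF4, had 44.9 against 41.4 CPM in replicate 1 and 123 against 59.7 CPM in replicate 2 (0.64 ± 0.20 SE, adjusted p = 0.39). Of 30 integrated stress response genes tested, which include the row ENSMUSG00000025408, none was called and 26 had a fold above 0, with a median of 0.19. Over all genes 5603 of 11358 had a fold above 0. In both sections 19 of the 30 were higher and 0 lower, while of all genes 2804 were higher and 3092 lower in both. Of 20 AP-1 and ATF family genes, 18 had a fold above 0 and none was called (median 0.28). The DLK-JNK cascade (17 genes, median -0.05), endoplasmic reticulum chaperones (18, median 0.01) and heat shock genes (10, median 0.05) had no call either.

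Genes that neurons induce with activity made up another set of calls. Bdnf, a neurotrophin, stood at 93.3 against 74.4 CPM in replicate 1 and 243 against 122 CPM in replicate 2 (0.71 ± 0.15 SE, adjusted p = 0.0097). Nr4a1, an orphan nuclear receptor made within minutes to hours of depolarisation, stood at 391 against 300 CPM and 373 against 251 CPM (0.46 ± 0.09 SE, adjusted p = 0.0092), with controls at 161 and 102 CPM. All 4 rNLS8 sums of Nr4a1 were above the controls. Gadd45b, a DNA damage and activity response gene, stood at 86.1 against 63.3 CPM and 149 against 65.9 CPM (0.80 ± 0.17 SE, adjusted p = 0.0128). These were 3 of 27 activity-regulated genes tested, beside 9 of all 11358 genes (0.0792%) called higher. Of the 27, 21 had a fold above 0, and their median was 0.22. The number above 0 over all genes is given with the stress-response genes. Fos (0.52 ± 0.19 SE), Npas4 (0.50 ± 0.40 SE) and Vgf (0.39 ± 0.12 SE) were not called. Arc went both ways, at 528 against 402 CPM in replicate 1 and 261 against 285 CPM in replicate 2. Slc6a8, the creatine transporter, is on none of these lists and stood at 124 against 77.3 CPM and 115 against 71.3 CPM (0.68 ± 0.16 SE, adjusted p = 0.0422).

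Cxcl10, a chemokine induced by interferon, had the highest fold among the called genes, and its section folds differed by more than its SE. Its levels were 14.4 against 12.6 CPM in replicate 1 and 219 against 32.5 CPM in replicate 2 (2.16 ± 0.25 SE, adjusted p = 4.2e-09), and control spots held 0.554 and 0.183 CPM. The difference thus came from replicate 2, where 14 of 49 Atf3-positive spots held Cxcl10 (28.6%, against 15.5% of Atf3-negative spots) and 1 spot held 32 of the 84 UMI. Spots touching a Cst7-positive spot held 81 of those 84 UMI. Without spots touching Cst7 the fold was 0.32 and was not called, and with the top spot of each set left out it was -0.01 in replicate 1 and 2.19 in replicate 2. Summed interferon genes stood at 488 against 489 CPM in replicate 1 and 1123 against 645 CPM in replicate 2. Of 22 tested, Cxcl10 was the 1 called, beside 9 of all 11358 genes called higher. Of the 22, 19 had a fold above 0 and 9 were higher in both sections (all-gene counts are above), with a median of 0.42. That median was 0.37 in spots with cortical markers and -0.00 without spots touching Cst7. With cortical markers only, Ifit1, an interferon-induced RNA-binding protein, was called besides Cxcl10, at 16.1 against 12.9 CPM in replicate 1 and 70.2 against 19.9 CPM in replicate 2 (1.28 ± 0.32 SE, adjusted p = 0.050, just under the threshold, beside an adjusted p of 0.11 with all spots).

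Ppp1r1b, Nnat and Rab3b were lower in Atf3-positive spots. Ppp1r1b encodes DARPP-32, which is most abundant in striatal projection neurons. It stood at 1077 against 1496 CPM in replicate 1 and 554 against 736 CPM in replicate 2 (-0.46 ± 0.07 SE, adjusted p = 3.4e-05). With cortical markers only, the fold was -0.31 and the call was lost (adjusted p = 0.0751). Of 10 striatal genes, 9 had a fold below 0 and Ppp1r1b was the 1 called, with a median of -0.42, or -0.02 in spots with cortical markers. Nnat, a small membrane protein of developing neurons, stood at 275 against 390 CPM and 353 against 461 CPM (-0.45 ± 0.09 SE, adjusted p = 0.0101), and against depth-matched spots its fold was -0.11. Rab3b, a synaptic vesicle GTPase, stood at 212 against 335 CPM and 214 against 280 CPM (-0.55 ± 0.11 SE, adjusted p = 0.0067), and at -0.46 against depth-matched spots (adjusted p = 0.23). Pcp4l1, a small calmodulin-binding protein, had a fold of -0.50 ± 0.12 SE and was not called (adjusted p = 0.10). The 13 layer 6 genes had a median of -0.24 with 8 lower in both sections and none called. Against depth-matched spots it was -0.07, with 5 of 10 above 0.

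Markers of glia and vessels gave 1 call, Cxcl10, which is also on the reactive astrocyte list. Disease-associated microglial genes (20 tested, Cst7 left out) had a median of 0.17, with summed levels of 5577 against 5441 CPM and 6006 against 5551 CPM. Homeostatic microglial genes (17 tested) had a median of 0.04. Trem2, a lipid receptor of microglia, had a fold of 0.10 ± 0.29 SE, Cd68, a lysosomal protein of phagocytes, 0.53 ± 0.26 SE, and P2ry12, a receptor of resting microglia, -0.77 ± 0.40 SE, none past the threshold. Gfap, the intermediate filament of reactive astrocytes, stood at 547 against 497 CPM in replicate 1 and 982 against 727 CPM in replicate 2 (0.29 ± 0.08 SE, adjusted p = 0.16). Against depth-matched spots, Gfap was called. The 14 reactive astrocyte genes had a median of 0.28, the 16 antigen presentation and complement genes 0.18, and the 13 astrocyte genes 0.02. The 15 oligodendrocyte and myelin genes had a median of -0.12, or -0.42 without spots touching Cst7. The 15 endothelial and mural genes had a median of 0.08, and the 8 of them tested against depth-matched spots 0.35. None of these oligodendrocyte or vessel genes was called in those fits. B2m, the light chain of class I molecules, stood at 388 against 357 CPM and 501 against 394 CPM (0.22 ± 0.09 SE, adjusted p = 0.72). In a bulk sum, fewer cells of a type and less RNA per cell cannot be told apart. The part of these markers in the called genes was not tested.

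**Figure D3:**
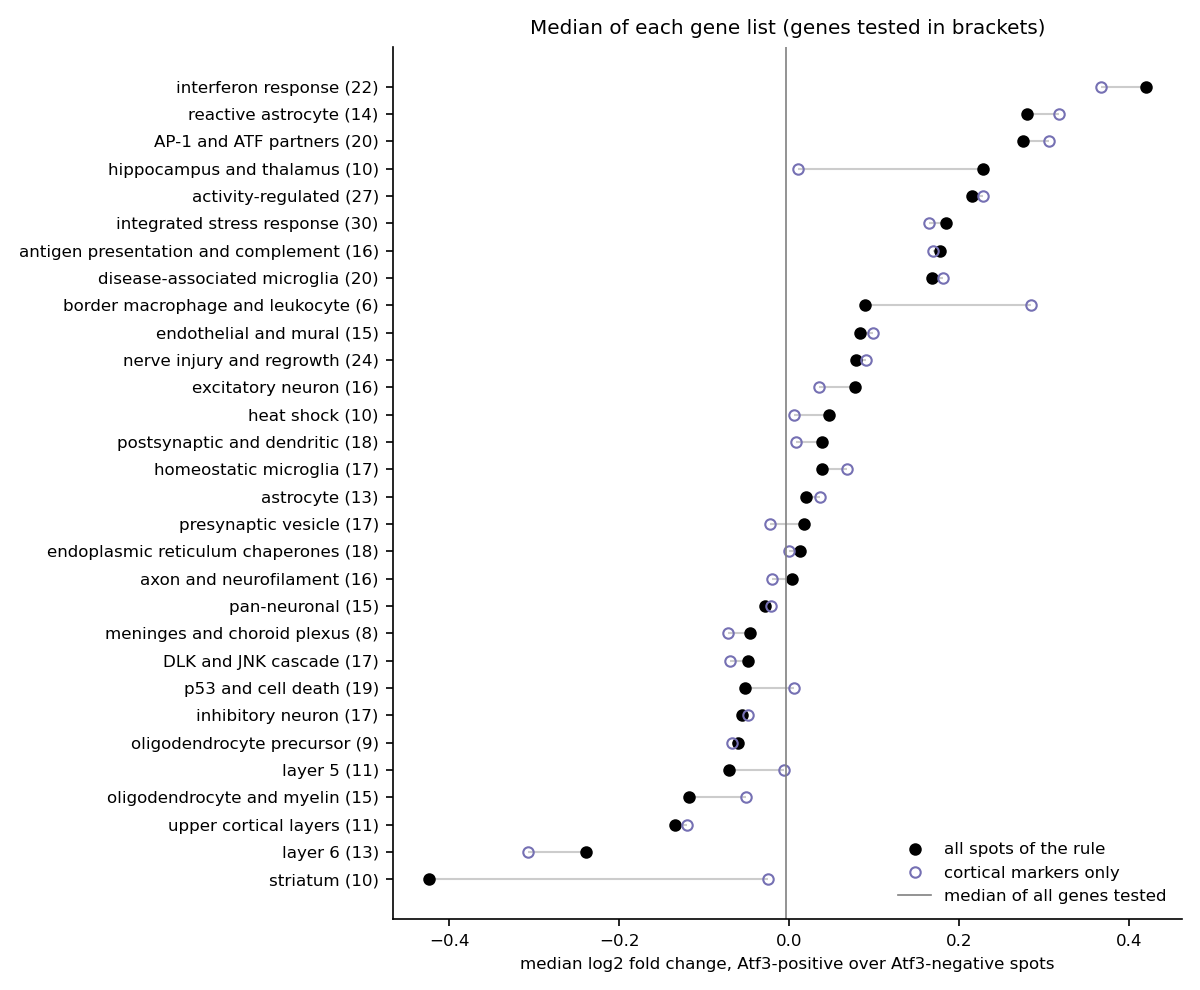
Median log2 fold change of each gene list, Atf3-positive over Atf3-negative spots, with the number of genes tested in brackets. Filled points use all spots of the rule and open points spots with cortical markers. The grey line is the median of all genes (-0.00) in the fit with all spots of the rule, and does not belong to the open points. The striatal list moves from -0.42 to -0.02 when the spots are limited to cortical markers. The integrated stress response (0.19 with all spots) and activity-regulated (0.22 with all spots) lists stay above 0.

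With all spots of the rule, no gene of the excitatory, pan-neuronal or inhibitory neuron lists was called. The 16 excitatory neuron genes had a median of 0.08, the 15 pan-neuronal genes -0.03, the 17 inhibitory neuron genes -0.05 and the 16 axon and neurofilament genes 0.00. Nefl, the light neurofilament subunit, stood at 275 against 316 CPM and 251 against 273 CPM (-0.17 ± 0.10 SE), below its control levels of 685 and 676 CPM in both sets. Against depth-matched spots, 2 inhibitory neuron genes were called higher, which are named here after their values were seen. Sst, the peptide somatostatin, stood at 743 against 675 CPM in replicate 1 and 1089 against 631 CPM in replicate 2 (0.45 ± 0.08 SE, adjusted p = 0.0015, beside 0.20 with all spots). Npy, neuropeptide Y, stood at 249 against 160 CPM and 269 against 171 CPM (0.65 ± 0.13 SE, adjusted p = 0.0032, beside 0.10 with all spots). Depth matching thus moved both peptides past the threshold, while the median of the 13 inhibitory genes tested there was -0.02. With depth matching and cortical markers together, Sst was called (0.42) and Npy was not (0.53). There Sst stood at 777 against 764 CPM in replicate 1 and 1115 against 613 CPM in replicate 2, so its difference came from replicate 2. In simulated counts of this comparison (11366 genes), 40.4% of genes changed 2-fold and 85.7% of genes changed 4-fold were recovered. The simulation drew both sets from the Atf3-negative levels, with the same small spread for every gene. Each change was the same in both sections. These shares therefore need not hold for the real sums.

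Other choices of spots changed the calls. Against depth-matched spots, 7 of 8229 genes were called (0.0851%), 6 higher (0.0729%) and 1 lower (0.0122%). Cxcl10 (2.24), Gadd45b (0.99), the Ddit3 row ENSMUSG00000116429 (0.80) and Ppp1r1b (-0.44) stayed called. The other 8 of the 12 kept their sign, with adjusted p-values of 0.175 for Tnfrsf12a and Cdkn1a and above that for the rest. With cortical markers only, 11 of 11210 were called (0.0981%), 9 higher (0.0803%) and 2 lower (0.0178%), and 10 of them were among the 12. Ppp1r1b and Slc6a8 lost their call there. Slc6a8 was called in 6 of 18 tested alternatives, the fewest among the 12. Without spots touching Cst7, which left 21 and 14 Atf3-positive spots, 0 of 10069 were called (445 at an unadjusted p under 0.05). There Tnfrsf12a had a fold of 1.34, from 10 and 14 UMI in the Atf3-positive spots of replicates 1 and 2. Adcyap1 had 1.98 from 14 and 4 UMI, and Cxcl10 0.32 from 3 and 3. None of these was called, and the counts are low.

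**Figure D4:**
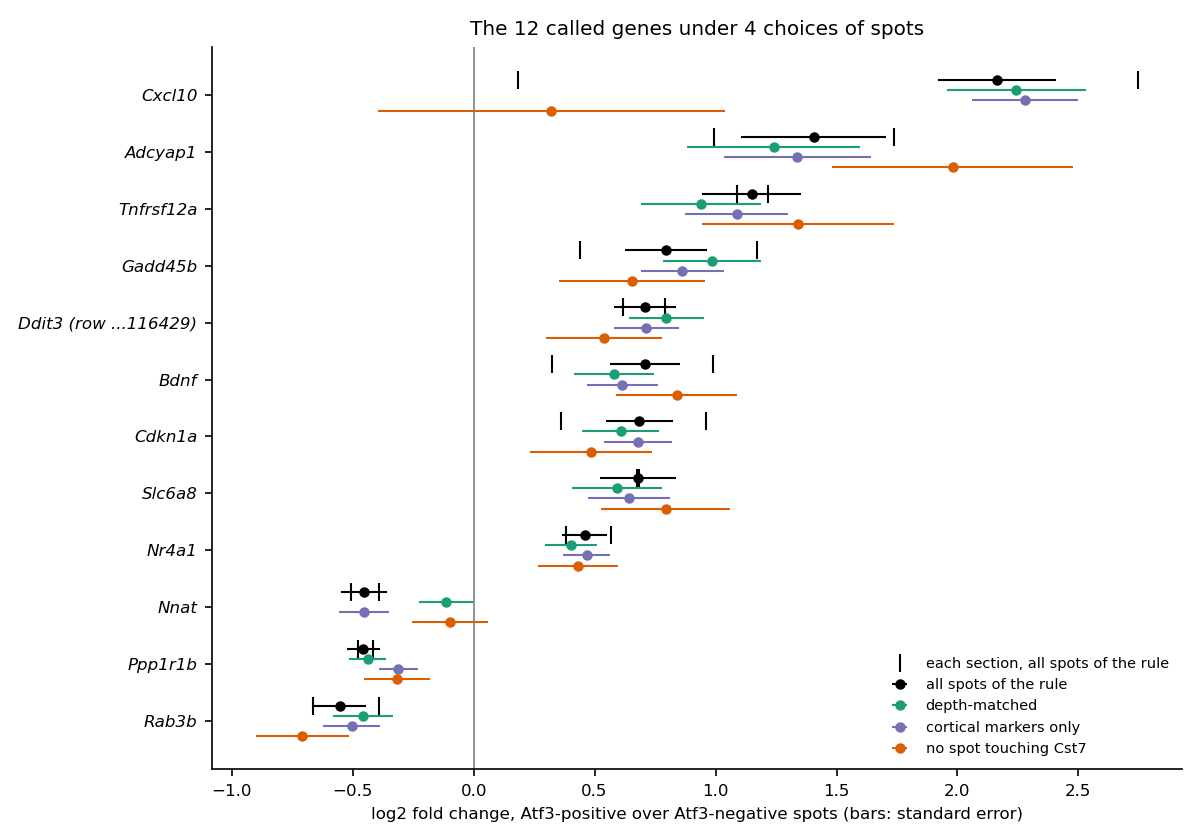
Log2 fold change of the 12 called genes, Atf3-positive over Atf3-negative spots, with the standard error as a bar, under 4 choices of spots. Vertical ticks give each section's own value for all spots of the rule. Cxcl10 drops to 0.32 without spots touching Cst7 and its sections differ (0.18 and 2.75), while Tnfrsf12a stays between 0.94 and 1.34.

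A second comparison used no spot with an Atf3 UMI. Atf3-negative spots that touched an Atf3-positive spot (216 and 151) were set against the other Atf3-negative spots (1048 and 844). Of 11452 genes tested, 52 (0.454%) were higher and 62 (0.541%) lower next to an Atf3-positive spot in edgeR, while DESeq2 called 0 higher and 3 lower (0.0262%, with 74 at an unadjusted p under 0.05), and edgeR without the section block 0 (279). Against depth-matched spots, edgeR called 30 higher (0.281%) and 45 lower (0.421%), or 0.701% in all. The position of the spots differed as well. Spots next to an Atf3-positive spot were cortical by markers in 80.6% and 92.7% of cases, against 55.2% and 88.5%, and touched a Cst7-positive spot in 66.2% and 71.5%, against 33.3% and 48.6%. Of 10 striatal genes, 7 were called lower, among them Ppp1r1b (-0.54 ± 0.05 SE, adjusted p = 3.3e-22). With cortical markers only, 18 genes (0.159%) were higher and 15 (0.133%) lower, and of the striatal genes Ppp1r1b alone was called (-0.31).

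In these spots with cortical markers, several stress and activity genes were higher next to an Atf3-positive spot. The sets were not matched on touching a Cst7-positive spot, which differed between them over all spots of the rule. The part of this difference in the folds below was not tested. The Ddit3 row ENSMUSG00000116429 had a fold of 0.51 ± 0.09 SE (adjusted p = 3.2e-05) and the row ENSMUSG00000025408 one of 0.47 ± 0.11 SE (adjusted p = 0.0106). Cdkn1a (0.46), Bdnf (0.46), Vgf, a secreted neuropeptide precursor (0.39), Nr4a1 (0.32) and Arc, a synaptic immediate early gene (0.27), were called, as was Cxcl10 (0.87). So were Pvalb, the parvalbumin of fast-spiking interneurons (0.30), Lmo4, a transcriptional regulator of upper layers (0.19), and Trbc2, a T cell receptor chain (0.69). With depth matching as well, the Ddit3 row ENSMUSG00000116429 (0.51), Cdkn1a (0.46), Vgf (0.36), Nr4a1 (0.27) and Cxcl10 (0.91) were called. The Ddit3 row ENSMUSG00000025408 (0.44), Bdnf (0.36), Arc (0.25), Pvalb (0.26), Lmo4 (0.18) and Trbc2 (0.58) were not. Lower genes included Gap43 (-0.24), Nnat (-0.36), Rab3b (-0.29), Nxph4, a neurexin ligand of deep layers (-0.73), and Ptgds, a prostaglandin synthase of meninges and oligodendrocytes (-0.32). Tnfrsf12a (0.40 ± 0.15 SE) and Adcyap1 (0.35 ± 0.22 SE) were not called. Over all spots of the rule, the widest called rises by fold were Samsn1, an adaptor of immune cells, with 12 and 9 UMI next to Atf3-positive spots, Mylk3, a myosin kinase, with 17 and 12, and Opn3, an opsin, with 52 and 56. The widest falls were of Zic4, a zinc finger factor, and the peptide gene Insl5, with 0 UMI there in both sections, and the homeobox gene Six2, with 4 and 4 UMI against 80 and 38. Zic4 was at least 1.98-fold lower when each 0 is read as 3 UMI per section, and Insl5 had 25 and 17 UMI in the other spots.

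Set side by side, the levels of several genes were ordered from distant to adjacent to Atf3-positive spots. Both comparisons share Atf3-negative spots, so the order is given as values only. The 4 genes below were called higher in Atf3-positive spots, so the top of the order is partly fixed by that choice. Adjacent spots were also deeper than distant ones, with medians of 10593.5 against 9622 UMI in replicate 1 and 8017 against 6177 in replicate 2. They were more often cortical by markers and more often touched a Cst7-positive spot. Ddit3 (ENSMUSG00000116429) stood at 89.8, 108 and 144 CPM in distant, adjacent and Atf3-positive spots of replicate 1, and at 131, 215 and 253 CPM in replicate 2. Tnfrsf12a stood at 25.05, 30.9 and 61.0 CPM, and at 42.9, 63.1 and 99.2 CPM. Adcyap1 did not share the order in replicate 1, with 12.4, 11.9 and 41.3 CPM, but did in replicate 2, with 17.4, 29.5 and 39.2 CPM. Cxcl10 stood at 12.5, 13.2 and 14.4 CPM, and at 26.9, 58.2 and 219 CPM.

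**Figure D5:**
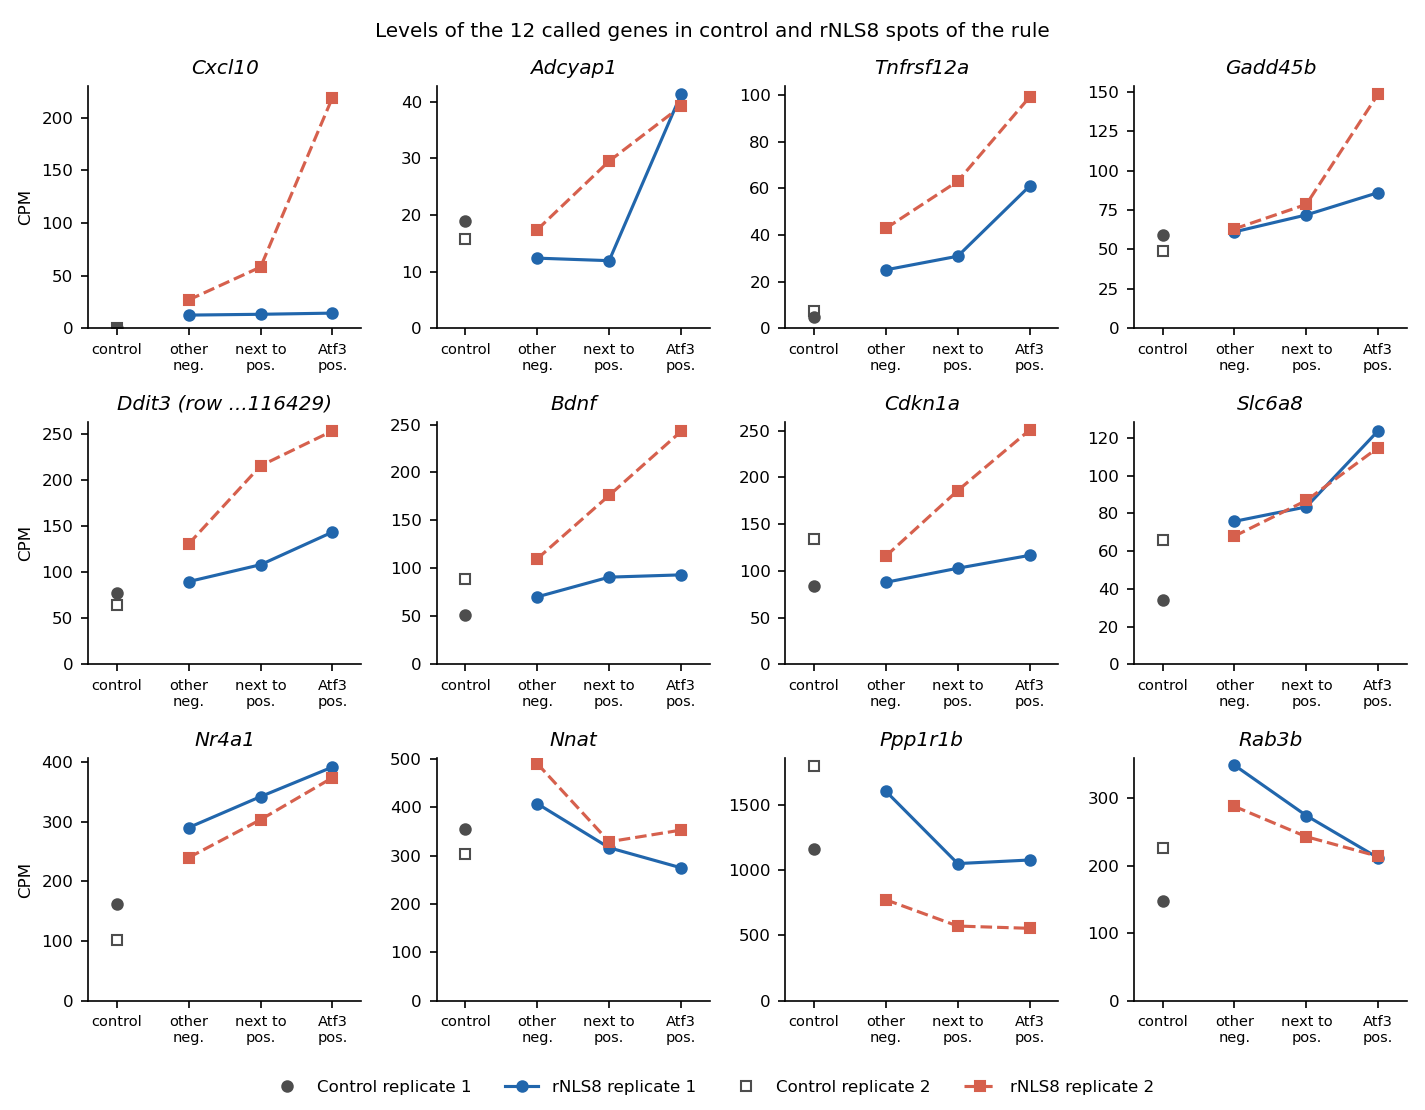
Levels in CPM, on linear axes from 0, of the 12 called genes in all control spots of the rule (grey) and in Atf3-negative spots away from and next to Atf3-positive spots and Atf3-positive spots of the 2 rNLS8 sections (blue and red lines). Tnfrsf12a runs from 25.05 to 61.0 CPM and from 42.9 to 99.2 CPM, above control levels of 4.87 and 7.34 CPM, and the Cxcl10 peak of 219 CPM is in replicate 2 alone.

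ATF3 and its partners bind short DNA elements. The RefSeq promoter windows (GRCm38.p6, 250 bases before to 50 after each start) of the called genes were therefore searched on both strands. The motifs were the AP-1 element TGANTCA, the cyclic AMP response element TGACGTCA and the C/EBP-ATF element TGATGNAA. The stretches below are shown because they hold the matches before the start of Atf3 itself and of 3 genes with called symbols. Each has 120 bases on the gene's strand, with the match in capitals. The Ddit3 window was found by its symbol, so it is not tied to the called row of the 2. They lie at chr1:191183380-191183499 (minus strand, Atf3), chr5:92348901-92349020 (minus strand, Cxcl10), chr10:127290543-127290662 (plus strand, Ddit3) and chr2:109676823-109676942 (plus strand, 1 of the Bdnf starts).
Atf3: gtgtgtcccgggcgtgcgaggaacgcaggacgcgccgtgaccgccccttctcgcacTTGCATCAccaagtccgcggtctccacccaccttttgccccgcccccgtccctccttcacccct
Cxcl10: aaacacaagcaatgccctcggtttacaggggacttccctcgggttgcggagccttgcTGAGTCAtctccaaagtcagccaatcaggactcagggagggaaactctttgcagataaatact
Ddit3: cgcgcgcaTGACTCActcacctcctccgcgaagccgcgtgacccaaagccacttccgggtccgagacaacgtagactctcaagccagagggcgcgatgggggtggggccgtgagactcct
Bdnf: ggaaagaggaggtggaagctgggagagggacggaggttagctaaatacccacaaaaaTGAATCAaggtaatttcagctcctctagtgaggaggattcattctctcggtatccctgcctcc
The Atf3 window holds the C/EBP-ATF element, read on the other strand, from 110 bases before the start, and the other stretches hold the AP-1 element from 74 (Cxcl10), 242 (Ddit3) and 152 (Bdnf) bases before it. The AP-1 element was in 3 of 16 windows of 8 higher genes and in 557 of 11618 windows (4.79%) of the 8946 tested genes with one. Ddit3 is counted among the 8 by its symbol. The cyclic AMP response element was in 0 of the 16 and in 2.93% of all windows, and the C/EBP-ATF element in 1 of the 16 and in 2.22%. Neither window of the lower genes held any of these motifs. A match is a description of the letters, and no binding was measured.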

How the data were processed

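Visium spatial gene expression was measured on 2 control and 2 rNLS8 brain sections, 1 per sample. The deposited matrices hold raw UMI counts of 19465 listed genes per spot, made with Space Ranger 2.1.0 per the file headers, on mm10 per the submitters' processing notes. The sources used here do not give the probe set. The authors' deposited spatial statistics and images were not used.

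Spots were classed by the rule, and UMI were summed per section and spot set, because spots of 1 section share their source. A pair of sums comes from the same section, which is the pairing the block uses. edgeR 4.0.16 (R 4.3.3) fitted section plus Atf3 status by quasi-likelihood. Low counts were filtered with filterByExpr, libraries were scaled by the trimmed mean, and p-values were adjusted by Benjamini-Hochberg over all genes tested, with a threshold of 0.05. DESeq2 1.42.0 was an alternative. Rows sharing a symbol were kept apart by identifier. The counts of the 2 rNLS8 sections differed beyond sampling noise (chi-square per degree of freedom 6.44 over 11601 genes). The 2 sections share 2095 barcodes, which mark array positions, not cells. The steps were tested on simulated data. Python 3.11.15, pandas 2.3.3 and scipy 1.17.1 were used.

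Named genes were, for the first comparison, up to 10 called rises and 10 called falls with the same sign in both sections, or the 5 smallest p-values where fewer than 5 passed, then the 3 largest called in each direction of the second comparison, called list members, and a fixed set of injury, stress and cell type genes. 1 gene the rule names is not reported here. The members and the gene lists were chosen with earlier results of these data known. Alternatives changed the depth, Slc17a7, Cst7, region and Atf3 conditions, the normalization, the filter, the tool and the block, and left out each section.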

Additional observations from a re-analysis of the deposited data

Results flagged for a closer look

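Atf3 was also found outside the chosen spots of the rNLS8 sections. In spots that met the rule but for a Cst7 UMI, Atf3 stood at 10.3 CPM in replicate 1 (18 of 170 spots, 10.6%) and 21.0 CPM in replicate 2 (35 of 259 spots, 13.5%), while 0 of 2 and 0 of 3 such spots in control held it. The levels in the chosen and the comparison spots together were 4.40 and 7.94 CPM. Median depths of the Cst7-positive spots were 10344.5 and 8842 UMI, and thinned to 2000 UMI 1.76% and 4.25% of them kept an Atf3 UMI. In spots with a Slc17a7 share at or below the section median, Atf3 stood at 1.79 CPM in replicate 1 (25 of 1486 spots) and 8.07 CPM in replicate 2 (58 of 1303 spots), against 1.14 and 0.570 CPM in control. These differences were not tested, and a spot with a Cst7 UMI can hold neurons as well as microglia.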

How the results depend on the processing

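The first comparison called 12 genes. It called 7 against depth-matched spots, 1 with 2 or more Atf3 UMI required, 2 within spots touching an Atf3-positive spot, 1 in the spots with the top 25% of Slc17a7 shares, 0 without the Cst7 condition (794 at an unadjusted p under 0.05), 0 without spots touching Cst7 (445), 0 with DESeq2 (44) and 102 without the Slc17a7 condition. The section pairs the sums, and without the replicate block edgeR called 0 (477). The 2 sections leave 1 pair when either is left out, which gives a value per gene with no test. Chosen after seeing the data, depth matching with cortical markers gave 4 and depth matching without the Cst7 condition 19. The second comparison called 114 genes, and 75 with depth matching, 33 with cortical markers, 18 with both, 22 in the top 25% of Slc17a7 shares, 12 without spots touching Cst7, 272 without the Cst7 condition, 3 with DESeq2 and 0 without the replicate block (279).

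Over 21 alternatives, 10 of the 12 called genes kept their sign in all, Nr4a1 was -0.062 with 2 or more Atf3 UMI, and Ppp1r1b was 0.0063 within spots touching an Atf3-positive spot. In the second comparison Adora2a was 0.015 with depth matching and cortical markers, and Cxcl10 -0.026 in the top 25% of Slc17a7 shares. The cause was not tested. The mean share of Atf3-positive spots was 4.32% and 1.35% after thinning. The ratio of median UMI was 1.17 and 1.00 after matching. The excess of Atf3-positive neighbours was 0.85 percentage points and 1.58 against matched spots. Leaving out each gene's top spot removes a larger part of the small Atf3-positive set.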
